A study of Mus musculus with 12 samples.

Results

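The genes described here were the collagens and the matrix genes that process, assemble or remodel collagen, in RNA sequencing of AML12 cells, a mouse hepatocyte line. The members were the rows of the expression table that carried any of 50 listed symbols. Of these, 48 were among the 24824 genes in the table, and *Nid2* and *Lox* were not analysed here. The symbols were selected on function and on fold changes measured in these same libraries, among them the falls of *Col3a1* with copper and of *Pcolce* with bile acid, so the members' own changes are given as a description with no p-value. Each member belonged to 1 of 7 roles, namely fibrillar collagens, other collagens, basement membrane, collagen modification and folding, procollagen cleavage and cross-linking, matrix glycoproteins and proteoglycans, and matrix remodelling.

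The series held 12 libraries of poly(A) RNA from wild-type AML12 cells, in 4 groups of 3. Group A was kept in standard growth medium. Group B received 300 µM CuCl2 with 40 nM elesclomol (Cu/ES), group C received the same Cu/ES with 1000 µM taurocholic acid (TCA), and group D received 1000 µM TCA, each for 24 h. Elesclomol is an ionophore that carries copper into cells, and TCA is a conjugated bile acid. Nothing in the labels says whether the 3 libraries of a group came from separate cultures, so the errors below measure the spread between libraries, and an exact permutation test of 3 against 3 libraries cannot give a p below 0.1. In bulk RNA, fewer cells of a kind and less RNA per cell cannot be told apart.

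Collagens are built from chains that wind around each other in the endoplasmic reticulum after their prolines and lysines have been hydroxylated. Fibrillar procollagens are then secreted, trimmed at their ends by metalloproteinases and cross-linked by lysyl oxidases, a family of enzymes that need copper. Type IV collagen, laminin, nidogen and perlecan form the sheet beneath epithelia. In the liver, stellate cells and fibroblasts are the best known source of fibrillar collagen, whereas hepatocytes are better known for plasma proteins.

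AML12 is described as a hepatocyte line, yet the defining hepatocyte genes were at or near 0 in the untreated libraries. *Alb*, *Hnf4a* and *Fgb* were listed at 0 in all libraries of group A, and 3 of the 7 hepatocyte markers in the table (*Apoe*, *Krt8* and *Krt18*) had a mean of at least 1 FPKM (fragments per kilobase of gene, scaled to library size) there. Of the 8 stellate cell and fibroblast markers, 3 reached that level in group A, and the summed FPKM of all 8 was 1990 to 2147 in A, 296.5 to 353.7 in B, 155.7 to 197.2 in C and 1697 to 1763 in D. Nearly all of that sum was *Vim*, with 1979 to 2133 FPKM in group A, while *Acta2* did not exceed 0.0181 FPKM there. These markers did not move together. *Vim*, *Des*, *Pdgfra* and *Pdgfrb* were lower in every library of group B than in A. *Acta2* (0.206 to 0.551 FPKM in B), *Tagln* (2.07 to 2.995) and *Gfap* (0.1095 to 0.174) were higher, and *Rgs5* overlapped. The summed endothelial markers (7 in the table) were 1.04 to 1.25 FPKM in A, 10.5 to 15.2 in B and 23.9 to 26.9 in C, led by *Pecam1* and *Vwf*, with *Lyve1* at 0 in A, B and D. The macrophage and leukocyte markers (6 in the table) summed to 5.88 to 6.90 FPKM in A and 1.43 to 2.69 in B, nearly all of it *Cd14*. The cholangiocyte markers (7 in the table) summed to 920.2 to 1004 FPKM in A and 1242 to 1406 in B. The part of these markers' changes in the results below was not tested. Library totals recovered from the FPKM values were 29115011 to 39782142 reads, lower in all libraries of groups B and C than in groups A and D.

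A gene was tested with limma when its mean FPKM over the 12 libraries was at least 1, which 10615 genes and 36 of the members reached. It was counted as risen or fallen when its adjusted p was under 0.05 and its log2 fold change beyond 1 in size. All fold changes are differences of mean log2(FPKM + 1) with their standard errors, a scale that understates the change of low genes. FPKM is corrected for gene length, so levels may be set side by side between genes.

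The members took a smaller share of the summed FPKM in both groups that received Cu/ES. They made up 0.796 ± 0.0446% of it in A (mean ± SD, n = 3 libraries here and below), 0.273 ± 0.0141% in B, 0.157 ± 0.00848% in C and 0.80 ± 0.0601% in D. The 17 collagen chains in the table alone took 0.174 ± 0.0139%, 0.0332 ± 0.00243%, 0.0287 ± 0.00326% and 0.162 ± 0.020% in the same order. The shares of groups B and C lay below those of groups A and D in each library, and the shares of A and D overlapped. Most tested genes had lower shares too. With every library scaled to the same FPKM sum, the median log2 fold change of all tested genes was -1.36 in group B vs. A. The median of the 36 members tested was -2.04. In group C vs. D these medians were -1.31 and -2.505.

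Of the 36 members tested in group B vs. A, 1 rose and 26 fell, against 10.1% of all tested genes that rose and 53.0% that fell. The members' falls thus stood in a table in which most genes fell. The median log2 fold change was -1.68 over these members and -1.10 over all tested genes, and 25 members lay below the all-gene median. When libraries were scaled by median ratios instead, which moved the all-gene median to 0.0143, 2 members rose and 14 fell, and the members' median was -0.38. The shares of 10.1% and 53.0% were found without this step and are not the background of these counts. Among all tested genes, about as many rose as fell under median-ratio scaling. The 12 falls lost under that scaling were those of *Col5a1*, *Col16a1*, *Col4a1*, *Col4a2*, *Col4a5*, *Col18a1*, *Lamb1*, *Plod2*, *P4ha2*, *P3h1*, *Bmp1* and *Sparc*. Values relative to the all-gene median of the FPKM scale are therefore given below for the largest falls, those of *Col3a1*, *Col6a1* and *Loxl2*. The other log2 fold changes of that scale are not relative to the median.

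**Figure D1:**
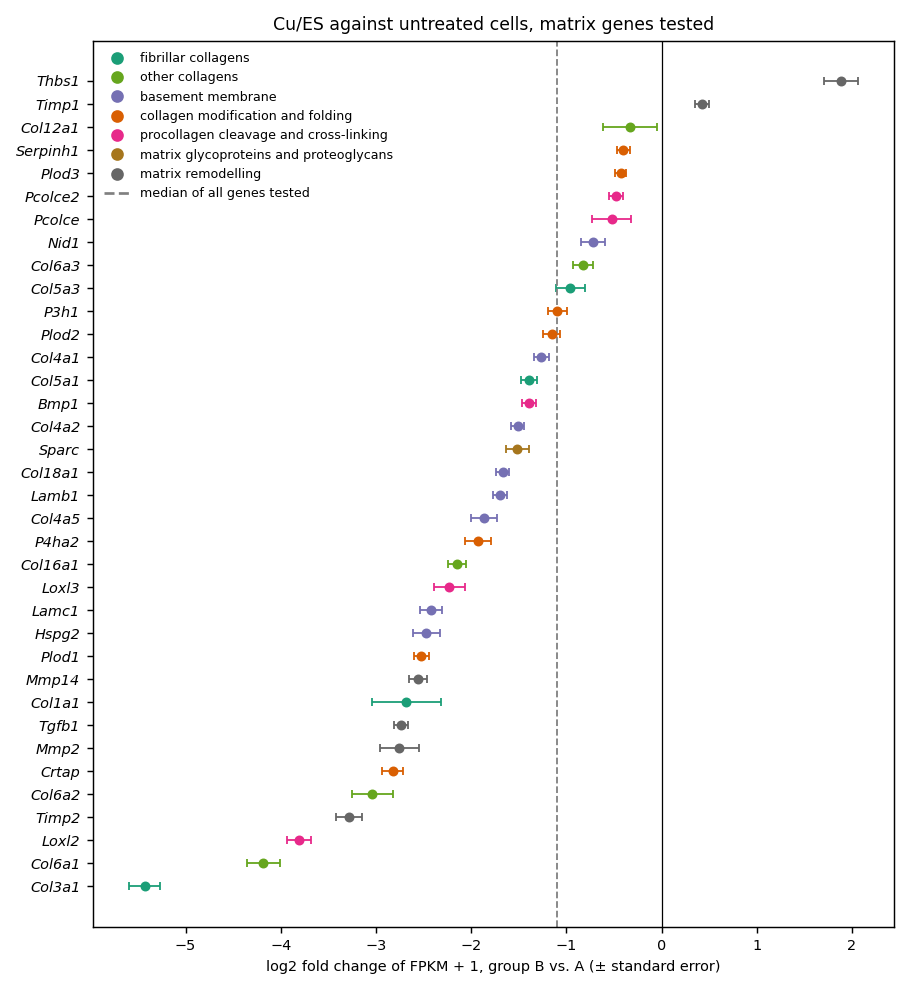
Log2 fold change of FPKM + 1 in group B (Cu/ES) vs. group A (untreated) for the 36 members tested, with standard errors, coloured by role; the dashed line marks the median of all tested genes (-1.10). *Thbs1* and *Timp1* lie above 0 and the other 34 below it, and 12 of the 36 lie above 0 after median-ratio scaling.

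The sequence before the annotated start is shown for 3 members that mark the ends of the pattern. *Col3a1* had the largest fall with Cu/ES and *Pcolce* the largest fall when TCA was added to Cu/ES. *Serpinh1* was the most abundant member and encodes a collagen chaperone that is also classed as a heat shock protein. The windows are bases -250 to -1 from the start in RefSeq's GRCm38.p6 annotation, 5′ to 3′ on the strand of the gene. *Col3a1* is at chr1:45311288-45311537 on the + strand, *Pcolce* at chr5:137611405-137611654 on the - strand and *Serpinh1* at chr7:99353240-99353489 on the - strand.
Col3a1: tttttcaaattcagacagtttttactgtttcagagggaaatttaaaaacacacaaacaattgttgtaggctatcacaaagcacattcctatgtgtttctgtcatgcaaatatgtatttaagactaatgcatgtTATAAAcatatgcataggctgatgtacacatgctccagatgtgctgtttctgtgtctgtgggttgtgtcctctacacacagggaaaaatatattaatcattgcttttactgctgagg
Pcolce: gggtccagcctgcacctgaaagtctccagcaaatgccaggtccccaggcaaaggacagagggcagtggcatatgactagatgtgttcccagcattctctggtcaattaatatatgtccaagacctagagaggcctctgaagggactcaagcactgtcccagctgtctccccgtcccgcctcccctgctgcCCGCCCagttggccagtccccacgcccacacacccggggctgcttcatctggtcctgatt
Serpinh1: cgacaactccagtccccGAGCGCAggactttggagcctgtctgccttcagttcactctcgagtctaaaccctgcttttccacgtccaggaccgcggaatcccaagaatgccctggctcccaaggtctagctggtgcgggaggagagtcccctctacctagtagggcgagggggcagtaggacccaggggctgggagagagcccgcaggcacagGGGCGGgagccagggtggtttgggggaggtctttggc
Capitals mark matches, on either strand, of the motifs that were searched and are spelled out in the next paragraph. None of the marked matches overlapped another. *Col3a1* held a TATA box at -117 to -112 and no GC box, *Pcolce* a GC box at -60 to -55, and *Serpinh1* a metal response element core at -233 to -227 and a GC box at -37 to -32.

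A promoter window of 250 bases before and 50 after the start was at hand for 35 of the 50 members and for 27025 genes in all. The GC box, searched as GGGCGG, was in 30 of the 35 windows, against 38.2% of all windows and 70.6% of those of tested genes. The TATA box, searched as TATAAA, was in 3 of them (*Col3a1*, *Plod1* and *Crtap*), against 15.7% of all windows and 8.55% of those of tested genes. The CCAAT box, searched by those letters, was in 14, against 41.1% of all windows and 43.5% of those of tested genes. The core of the metal response element, searched as TGCACNC and with G for the A as TGCGCNC, was in 13, against 28.2% of all windows and 40.8% of those of tested genes. The heat shock element, searched as GAANNTTCNNGAA and with its units in the other order as TTCNNGAANNTTC, was in 0, against 0.662% of all windows and 0.576% of those of tested genes. A match describes letters in this window only.

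Of the 4 fibrillar collagens tested, 3 fell in group B vs. A and 1 in group C vs. B, against 53.0% and 1.16% of all tested genes. *Col3a1*, the chain of type III collagen, was the most abundant in untreated cells and nearly vanished with Cu/ES. Its FPKM was 119.5, 168 and 125 in A, 2.36, 2.48 and 1.75 in B, 0.346, 0.726 and 0.640 in C and 108, 158 and 112 in D. The groups A and D overlapped, whereas every library of group B was below them and every library of group C below those of group B. The mean was 62.6-fold lower in group B than in A, with a log2 fold change of -5.43 ± 0.16, or -4.33 relative to the median of all genes. Adding TCA to Cu/ES went with a further fall of 3.85-fold in the mean, at a log2 fold change of -1.03 ± 0.16 that sat close to the threshold. That call was lost without group B replicate 1 (-0.99), group B replicate 2 (-0.96) or group C replicate 1 (-0.92), and after scaling every library to the same FPKM sum (TPM, -0.89). TCA without Cu/ES gave -0.13 ± 0.16.

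*Col1a1*, a chain of type I collagen, was lower and more variable than *Col3a1*. It measured 11.4, 24.9 and 11.2 FPKM in A, 1.30, 2.46 and 0.877 in B, 0.452, 0.913 and 0.371 in C and 5.66, 16.9 and 6.34 in D, with the second library the highest in each group. It fell in group B vs. A with a log2 fold change of -2.68 ± 0.36, with no overlap. The differences of -0.66 ± 0.36 in group C vs. B and -0.72 ± 0.36 in group D vs. A did not reach the fold threshold, and these groups overlapped. The former was -1.24 with a pseudocount of 0.1 and the latter -1.18 without group D replicate 2, and each then passed both thresholds. *Col1a2*, which encodes the other chain of the usual type I heterotrimer, was all but missing from these cells. It had 4, 2 and 1 reads in A, 11, 5 and 9 in B, 5, 25 and 2 in C and 0 in each library of D, where 3 reads would be 0.0144 to 0.0146 FPKM. Its FPKM in group A was 0.0116 ± 0.00770, against 15.9 ± 7.83 for *Col1a1*.

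Type V collagen showed the same unequal make-up. *Col5a1* stood at 49.0 ± 1.41 FPKM and *Col5a3* at 47.1 ± 5.70 in group A, whereas *Col5a2*, the partner chain in most tissues, had 1 read in 1 of the 3 libraries of that group. *Col5a1* fell to 18.1 ± 0.609 FPKM in group B (log2 fold change -1.39 ± 0.083) and was 16.1 ± 2.04 in C and 48.1 ± 2.98 in D.

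*Col5a3*, a chain of type V collagen, had higher values when TCA was added. Its FPKM was 50.01, 40.6 and 50.8 in A, 28.1, 18.3 and 25.5 in B, 52.3, 41.2 and 51.8 in C and 66.8, 53.1 and 70.6 in D. All libraries of group B were below those of group A and of group C, and all libraries of group D were above those of group A. The log2 fold change was -0.96 ± 0.15 in group B vs. A, 0.998 ± 0.15 in group C vs. B and 0.42 ± 0.15 in group D vs. A. None passed both thresholds. The first turned to 0.34 after median-ratio scaling and passed both as a fall after TPM scaling (-1.31) or without group A replicate 2 (-1.06) or group B replicate 1 (-1.08) or 3 (-1.01). The second was the largest positive value of the members in that comparison and passed both with a pseudocount of 0.1 (1.03), after TPM (1.06) or median-ratio (1.08) scaling, in limma-voom on recovered reads (1.03) and without group B replicate 1 (1.12) or 3 (1.05) or group C replicate 2 (1.11).

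*Col27a1*, a fibrillar collagen best known from cartilage, was too low to be tested and was higher in both Cu/ES groups. It had 19, 10 and 15 reads in A, 184, 174 and 173 in B, 342, 480 and 430 in C and 11, 15 and 18 in D. In FPKM the means were 0.0444 ± 0.0140, 0.659 ± 0.0216, 1.52 ± 0.123 and 0.0435 ± 0.0105 in the same order, so that groups A, B and C did not overlap and groups A and D did. In group C its mean exceeded those of *Col1a1* (0.579) and *Col3a1* (0.571), which it had been far below in group A.

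**Figure D2:**
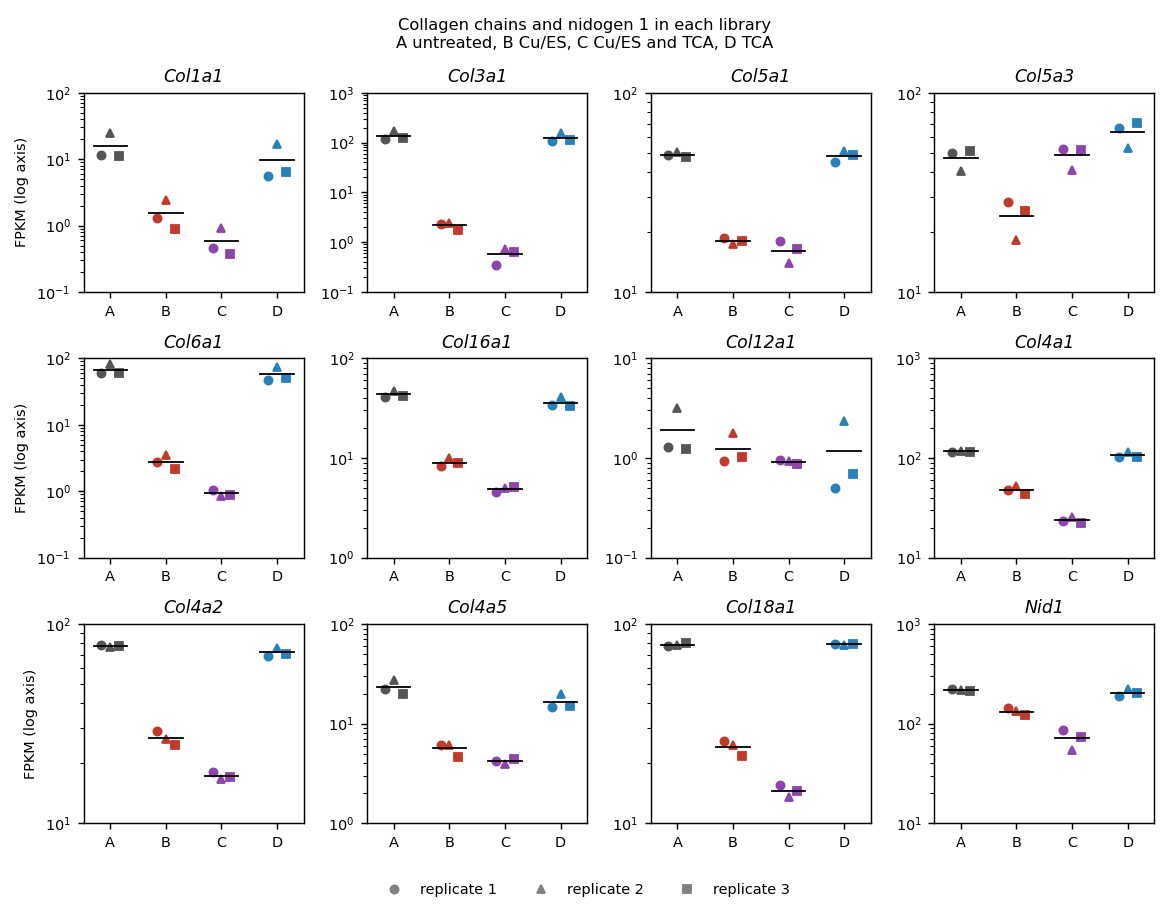
FPKM (log axis) of 11 collagen chains and *Nid1* in each of the 12 libraries, by group; symbols mark the replicate number and the bar is the mean of 3 libraries. *Col3a1* falls from 119.5 to 168 FPKM in group A to 1.75 to 2.48 in group B, and *Col5a3* alone of those drawn has a higher mean in group C (48.4 FPKM) than in group A (47.1 FPKM).

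Of the other collagens, 3 of the 5 tested fell in group B vs. A, against 53.0% of all tested genes, and 0 passed in group C vs. B. The chains of type VI, a beaded filament around cells, stood at very different levels in untreated cells. *Col6a1* was 59.4, 83.4 and 60.1 FPKM in A, 2.71, 3.47 and 2.14 in B, 1.05, 0.8501 and 0.888 in C and 46.7, 75.1 and 51.1 in D. Group B was below group A and group C below group B in each library, and groups A and D overlapped. *Col6a2* and *Col6a3*, its partner chains, were at 9.88 ± 2.76 and 1.75 ± 0.266 FPKM in group A. *Col6a1* fell by 24.4-fold with Cu/ES (log2 fold change -4.18 ± 0.18, -3.08 relative to all genes) and *Col6a2* by 32.5-fold (-3.04 ± 0.22). *Col6a3* was 0.547 ± 0.106 FPKM in group B and 1.05 ± 0.0252 in group C, with each library of C above those of B (0.41 ± 0.10). The C vs. B value of *Col6a1*, -0.95 ± 0.18, missed the fold threshold and passed it with a pseudocount of 0.1 (-1.46), after median-ratio scaling (-1.196), in limma-voom (-1.56) and without group B replicate 3 (-1.08).

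*Col16a1*, a collagen that associates with fibrils, was 41.4, 46.8 and 42.1 FPKM in A, 8.22, 9.90 and 8.89 in B, 4.53, 4.997 and 5.15 in C and 33.99, 40.9 and 33.1 in D. None of the 4 groups overlapped another. It fell in group B vs. A with a log2 fold change of -2.15 ± 0.093 on the log2 scale, and the differences in group C vs. B (-0.76 ± 0.093) and D vs. A (-0.27 ± 0.093) stayed under the fold threshold. *Col12a1*, another fibril-associated chain, was 1.29, 3.20 and 1.23 FPKM in A, 0.928, 1.77 and 1.01 in B, 0.950, 0.930 and 0.874 in C and 0.4996, 2.37 and 0.683 in D. The second library was far above the others in groups A, B and D, groups A, B and D overlapped one another, and the B vs. A value of -0.33 ± 0.28 became 0.54 after median-ratio scaling. *Col8a1*, a short-chain collagen, did not exceed 0.226 FPKM in any library.

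The basement membrane members were high in untreated cells and lower in every step of the Cu/ES series. Of the 8 tested, 7 fell in group B vs. A, against 53.0% of all tested genes. All 8 had every library of group B below group A and every library of group C below group B. Groups lay wholly below in this way for 33 of the 36 tested members in B vs. A, against 72.4% of all genes, with 2 wholly above (20.5% of all genes), and for 25 of the 36 in C vs. B, against 27.2%. No basement membrane member passed both thresholds in group C vs. B, where the 8 log2 fold changes ran from -0.99 to -0.36, or in group D vs. A, where they ran from -0.46 to 0.057.

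*Col4a1*, a core chain of type IV collagen, was 114, 119 and 116 FPKM in A, 48.1, 52.2 and 43.7 in B, 23.4, 25.3 and 22.3 in C and 103, 115 and 103 in D. Of the 4 groups, only A and D overlapped. It fell in group B vs. A with a log2 fold change of -1.26 ± 0.075 on the log2 scale, which was 0.062 after median-ratio scaling, and its C vs. B value of -0.99 ± 0.075 lay just short of the fold threshold. It passed both with a pseudocount of 0.1 (-1.01), in limma-voom (-1.02) and without group B replicate 3 (-1.05) or group C replicate 2 (-1.03). *Col4a2*, the chain it pairs with, was lower throughout, at 77.7 ± 0.778, 26.7 ± 2.16, 17.3 ± 0.669 and 72.0 ± 3.73 FPKM. The genes lie head to head in the GRCm38.p6 annotation, with 5′ ends that overlap by 22 bases on opposite strands. In group C vs. B their log2 fold changes were -0.99 ± 0.075 and -0.60 ± 0.068, and in group D vs. A -0.12 ± 0.075 and -0.11 ± 0.068.

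*Col4a5*, a type IV chain of kidney and other specialised membranes, was 22.5, 27.5 and 19.8 FPKM in A, 6.15, 6.17 and 4.65 in B, 4.23, 3.91 and 4.37 in C and 14.8, 19.97 and 15.2 in D. Its libraries overlapped between groups A and D, and its fall of -1.86 ± 0.13 in group B vs. A was followed by -0.36 ± 0.13 in group C vs. B. *Col18a1*, the source of endostatin, was 78.8 ± 1.65 FPKM in A, 24.1 ± 2.11 in B, 14.6 ± 1.04 in C and 79.1 ± 0.630 in D. Its groups A and D overlapped, with a difference of 0.0059 ± 0.071 (-0.0015 after TPM scaling).

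*Nid1*, nidogen, which links laminin to type IV collagen, was the most abundant of the group. Its FPKM was 221, 219.8 and 212 in A, 142, 133 and 121 in B, 85.6, 54.7 and 73.3 in C and 190.1, 223 and 201 in D. Only groups A and D overlapped. The B vs. A value of -0.72 ± 0.12 did not reach the fold threshold, turned to 0.61 after median-ratio scaling and passed both thresholds after TPM scaling (-1.09). The C vs. B value was -0.90 ± 0.12, and -1.04 without group C replicate 1, which passed both. *Hspg2*, perlecan, was 86.9, 84.1 and 77.1 FPKM in A, 16.7, 13.5 and 12.4 in B, 11.8, 7.45 and 9.62 in C and 60.9, 78.8 and 74.9 in D, and fell in group B vs. A with a log2 fold change of -2.47 ± 0.14. The laminin chains *Lamb1* (-1.70 ± 0.076) and *Lamc1* (-2.42 ± 0.11) fell in the same comparison.

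In the group that modifies and folds collagen, 5 of 7 members fell in B vs. A and 2 of 7 in C vs. B. Among all tested genes, 53.0% and 1.16% fell in these comparisons. The enzymes did not move by the same amount. *Plod1*, a lysyl hydroxylase, fell with a log2 fold change of -2.52 ± 0.079 on the log2 scale in group B vs. A, *Plod2* by -1.16 ± 0.088 (0.11 after median-ratio scaling), and *Plod3* had -0.43 ± 0.058 (0.87). *Plod2*, which makes the telopeptide hydroxylysines used in cross-links, was 27.1, 21.5 and 25.4 FPKM in A, 10.5, 10.9 and 9.96 in B, 9.23, 8.29 and 9.27 in C and 18.4, 16.8 and 19.03 in D. Group D was below group A in each library, with -0.42 ± 0.088.

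*P4ha2*, a subunit of prolyl hydroxylase, was 59.1, 46.4 and 62.5 FPKM in A, 13.1, 15.2 and 13.2 in B, 15.2, 16.5 and 12.7 in C and 49.9, 34.9 and 46.4 in D. It fell in group B vs. A with a log2 fold change of -1.93 ± 0.14, and groups B and C overlapped (0.084 ± 0.14). *P3h1* and *Crtap* encode proteins of the same prolyl hydroxylation complex and parted in group C vs. B. *P3h1* was 10.99 ± 1.17 FPKM in group B and 14.5 ± 2.40 in group C (0.36 ± 0.10, with overlap). *Crtap* was 47.1, 52.6 and 44.7 FPKM in A, 5.0, 6.93 and 5.95 in B, 2.69, 2.33 and 2.35 in C and 49.9, 51.4 and 41.3 in D. It fell in group B vs. A with a log2 fold change of -2.83 ± 0.11 and again in group C vs. B by -1.002 ± 0.11, a value at the threshold that was lost without group B replicate 2 (-0.90) or 3 (-0.998), without group C replicate 2 (-0.98) or 3 (-0.98), and after TPM scaling (-0.89).

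*Serpinh1*, the collagen chaperone of the endoplasmic reticulum, was the most abundant member. It measured 490.1, 551 and 511 FPKM in A, 391.6, 406 and 378 in B, 175, 194 and 166 in C and 624, 624 and 624 in D. No groups overlapped, and group D was the highest. With Cu/ES the log2 fold change was -0.40 ± 0.068, smaller in size than that of the median gene, and 0.94 after median-ratio scaling. When TCA was added to Cu/ES it fell with a log2 fold change of -1.13 ± 0.068, whereas TCA without Cu/ES gave 0.27 ± 0.068.

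Of the 5 tested members that cleave procollagen or cross-link fibrils, 3 fell in group B vs. A and 2 in group C vs. B. Among all tested genes the shares were 53.0% and 1.16%. *Pcolce*, which enhances the removal of the procollagen C-propeptide, stood out in group C. Its FPKM was 219, 274 and 216 in A, 153, 191 and 149 in B, 25.7, 47.4 and 25.01 in C and 198, 258 and 186 in D. Every library of group C was below 149 FPKM, the lowest value of group B, and groups A and D overlapped. The mean was 5.02-fold lower in group C than in B, with a log2 fold change of -2.35 ± 0.20. The B vs. A value was -0.52 ± 0.20 (0.81 after median-ratio scaling) and the D vs. A value -0.15 ± 0.20. *Pcolce2*, its paralogue, did not share this pattern, with 16.9 ± 0.969 FPKM in group B, 18.7 ± 1.15 in group C and 0.14 ± 0.073. *Bmp1*, the C-proteinase itself, was 52.0, 55.6 and 50.5 FPKM in A, 19.8, 20.6 and 17.98 in B, 13.9, 13.3 and 12.9 in C and 49.5, 57.0 and 51.6 in D. It fell in group B vs. A with a log2 fold change of -1.39 ± 0.073 and differed by -0.51 ± 0.073 in group C vs. B, without overlap in both cases, and by -0.002 ± 0.073 in group D vs. A (0.011 after median-ratio scaling).

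Of the copper-dependent lysyl oxidases, *Loxl2* was the most abundant. It measured 67.3, 69.7 and 69.8 FPKM in A, 3.68, 5.10 and 3.32 in B, 0.926, 1.57 and 0.999 in C and 55.0, 54.7 and 50.2 in D. No groups overlapped. It was 17.1-fold lower in group B than in A (-3.81 ± 0.13, -2.71 relative to all genes), fell again with a log2 fold change of -1.21 ± 0.13 in group C vs. B, and differed by -0.37 ± 0.13 in group D vs. A. *Loxl3* was 8.12, 10.8 and 7.48 FPKM in A, 1.02, 1.47 and 0.750 in B, 0.422, 0.521 and 0.898 in C and 7.12, 9.51 and 7.06 in D. It fell in group B vs. A with a log2 fold change of -2.23 ± 0.16, and groups B and C overlapped (-0.36 ± 0.16). *Loxl1* was near 0 throughout, with 0, 4 and 0 reads in A, 2, 7 and 1 in B, 0, 12 and 8 in C and none in D.

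*Adamts2*, the N-proteinase of fibrillar procollagen, had no reads in groups A and D, where 3 reads would be 0.0104 to 0.0108 FPKM. It had 9, 23 and 16 reads in group B and 8, 27 and 8 in group C.

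**Figure D3:**
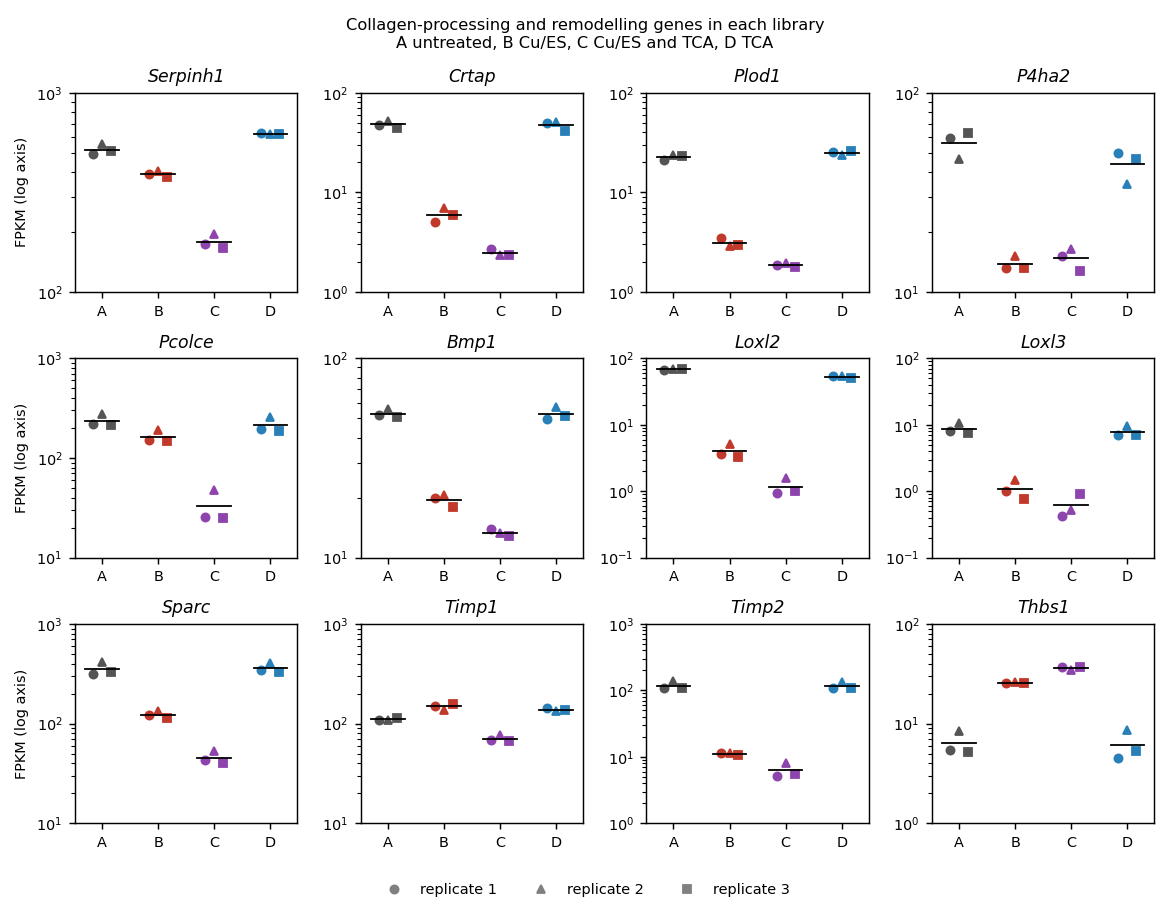
FPKM (log axis) of 12 collagen-processing and remodelling genes in each of the 12 libraries, by group; symbols mark the replicate number and the bar is the mean of 3 libraries. *Serpinh1*, *Pcolce* and *Timp1* keep most of their level or more in group B and are lower in group C, while *Loxl2*, *Crtap* and *Timp2* are already low in group B, and *Thbs1* is higher in groups B and C.

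*Sparc*, a secreted glycoprotein that binds collagen, was the only matrix glycoprotein or proteoglycan of the list that could be tested. It measured 318, 419.6 and 331 FPKM in A, 121, 134 and 114 in B, 43.2, 53.2 and 39.9 in C and 347, 402 and 328 in D. It fell in group B vs. A (-1.51 ± 0.12, -0.18 after median-ratio scaling) and in group C vs. B (-1.43 ± 0.12), each without overlap, and groups A and D overlapped (0.016 ± 0.12). The other members of this role were low and did not move together. *Fbln2*, fibulin, was 0.147, 0.243 and 0.149 FPKM in A, 0.439, 0.655 and 0.426 in B, 0.948, 0.947 and 0.680 in C and 0.0810, 0.117 and 0.112 in D, so that each library of group B was above group A and each of group C above group B.

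*Fbn1*, fibrillin, had 7, 27 and 8 reads in A, 84, 111 and 70 in B, 74, 124 and 115 in C and 25, 32 and 21 in D. *Bgn*, biglycan, had 26, 49 and 14 reads in A, 5, 6 and 5 in B, 0 in each library of C and 14, 23 and 5 in D, and 3 reads in a library of group C would be 0.0346 to 0.0414 FPKM. *Dcn*, decorin, had 7, 59 and 4 reads in A, 2, 0 and 4 in B, 14, 8 and 6 in C and 4, 17 and 7 in D. These proteoglycans of connective tissue had at most 59 reads in any library, and *Lum* was listed above 0 in 1 library. Of the 12 members in the table that were too low to test, 6 had every library of group B above group A (*Col1a2*, *Col27a1*, *Adamts2*, *Fbn1*, *Fbln2* and *Timp3*), 1 had every library below (*Bgn*) and 5 overlapped. Of all 14209 genes too low to test, 17.1% had every library of group B above group A and 17.8% every library below.

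Of the 6 remodelling genes tested, 1 rose and 4 fell in group B vs. A, and 1 fell in group C vs. B. Among all tested genes, 10.1% rose and 53.0% fell in group B vs. A, and 1.16% fell in group C vs. B. The inhibitors of matrix metalloproteinases split. *Timp1* was 108, 109 and 114 FPKM in A, 150.0, 137 and 159 in B, 67.9, 77.1 and 66.3 in C and 143, 135 and 138 in D. Groups B and D were above group A in each library and group C was below all others. Its log2 fold change was 0.43 ± 0.072 in group B vs. A (1.76 after median-ratio scaling, which passed both thresholds, and 0.057 after TPM scaling), -1.07 ± 0.072 in group C vs. B, where it fell (-0.991 after TPM scaling, short of the fold threshold), and 0.33 ± 0.072 in group D vs. A. *Timp2* was 108, 137 and 109.7 FPKM in A, 11.4, 11.5 and 10.6 in B, 5.20, 7.97 and 5.55 in C and 108, 132 and 108 in D. It fell 10.6-fold with Cu/ES (-3.29 ± 0.13), differed by -0.77 ± 0.13 in group C vs. B without overlap, and overlapped between groups A and D. *Timp3* had at most 20 reads in any library.

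*Mmp2*, a gelatinase, was 10.2, 13.2 and 9.10 FPKM in A, 0.739, 0.975 and 0.517 in B, 0.247, 0.447 and 0.0773 in C and 4.32, 9.05 and 5.77 in D. It fell in group B vs. A with a log2 fold change of -2.75 ± 0.20, and every library of group D was below group A (-0.71 ± 0.20). Its C vs. B value of -0.47 ± 0.20 was -1.35 with a pseudocount of 0.1, which passed both thresholds. *Mmp14*, the membrane protease that activates it, fell with a log2 fold change of -2.56 ± 0.097 in group B vs. A and was 82.9 ± 1.79 FPKM in group D against 76.4 ± 2.69 in group A. *Tgfb1*, the growth factor best known for inducing collagen, was 102 ± 10.2 FPKM in A, 14.5 ± 0.347 in B, 13.5 ± 0.558 in C and 111 ± 5.48 in D, and fell in group B vs. A with a log2 fold change of -2.73 ± 0.075. *Thbs1*, thrombospondin, a matricellular protein that can activate latent TGF-beta, was the member that rose, and is described because its values had been seen. It was 5.50, 8.45 and 5.14 FPKM in A, 25.4, 26.1 and 25.5 in B, 36.6, 34.3 and 36.6 in C and 4.49, 8.54 and 5.35 in D, with 1.88 ± 0.18 in group B vs. A.

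Taken over all roles, TCA had different values with and without Cu/ES. In group C vs. B, 0 of the 36 tested members rose and 7 fell (*Col3a1*, *Crtap*, *Serpinh1*, *Pcolce*, *Loxl2*, *Sparc* and *Timp1*), against 1.13% of all tested genes that rose and 1.16% that fell, and the median log2 fold change was -0.50 against -0.030 for all genes. In group D vs. A, 0 members rose and 0 fell by both thresholds (0.0659% and 0.151% of all genes), and 7 passed limma's adjusted p alone, 3 of them higher and 4 lower (22.0% of all genes). The difference between both effects, limma's interaction term, passed its adjusted p for 21 of the 36 members, against 37.5% of all genes. Of those 21, 2 were higher with Cu/ES than without (*Col5a3* and *Col6a3*) and 19 lower. Since the list was drawn up with these contrasts known, the counts are read no further.

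**Figure D4:**
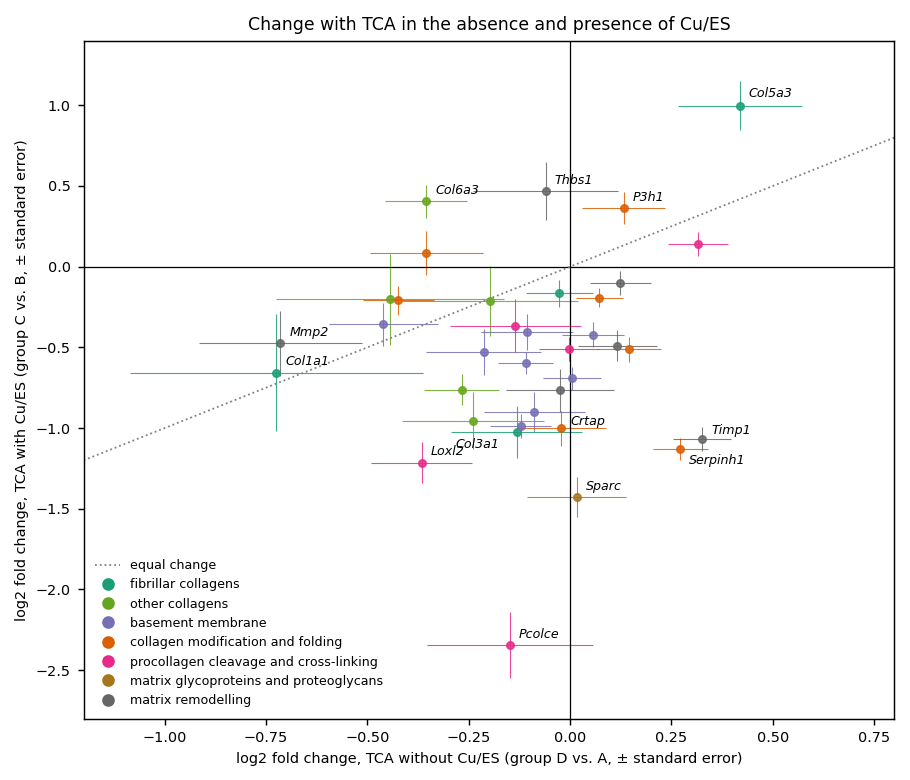
Log2 fold change with TCA in the absence of Cu/ES (group D vs. A, horizontal) and in its presence (group C vs. B, vertical) for the 36 tested members, with standard errors; the dotted line marks equal change. *Pcolce* lies at -0.15 and -2.35, *Sparc* at 0.016 and -1.43, *Serpinh1* at 0.27 and -1.13, and *Col5a3* at 0.42 and 0.998.

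Several members were highest in the second library of every group. This held for 7 of the 36 tested (*Col1a1*, *Col3a1*, *Col4a1*, *Pcolce*, *Sparc*, *Timp2* and *Mmp2*), against 3.8% of all genes, while the first and the third library were the highest in every group for 1 member each (1.2% and 1.64% of all genes). *Col5a3* was the lowest in the second library of every group (5.92% of all genes). For *Col1a1* the second library was 2.20, 2.26, 2.22 and 2.81 times the mean of the other libraries in groups A to D, and for *Col5a3* 0.805, 0.684, 0.791 and 0.772 times. A test of the replicate number in the fit over all groups, which was added after these values had been seen, was passed by 4 members, namely *Col1a1* (limma, adjusted p = 0.01854), *Col5a3* (0.01854), *Pcolce* (0.03153) and *Sparc* (0.03508), against 0.763% of all genes. What the libraries of a number share is not given in the labels. With the second library of every group left out, 1 member rose and 26 fell in group B vs. A, and 0 rose and 6 fell in group C vs. B, where *Crtap* no longer passed (-0.88).

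**Figure D5:**
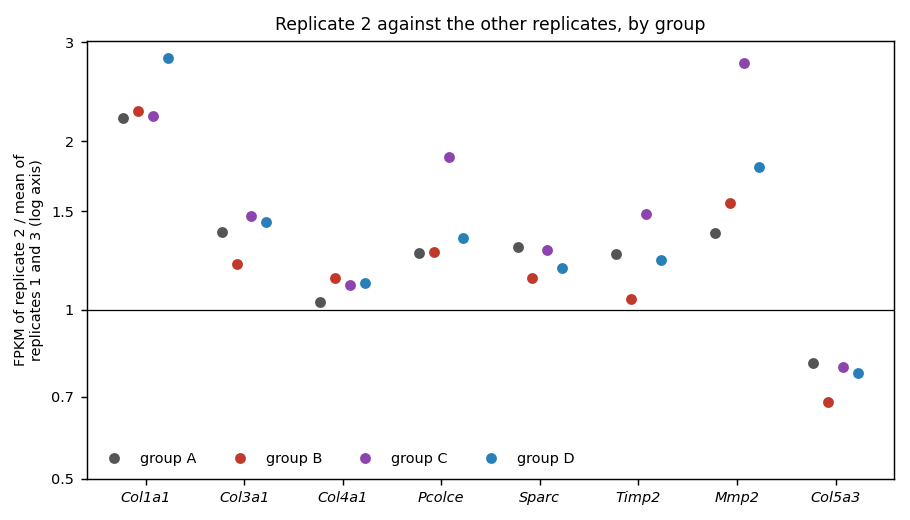
FPKM of replicate 2 divided by the mean of replicates 1 and 3 (log axis) in each group, for the 7 members with replicate 2 the highest in every group and for *Col5a3*. All points of the 7 lie above 1, up to 2.81 for *Col1a1* in group D, and those of *Col5a3* lie between 0.684 and 0.805.

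Other genes of the matrix pathway were listed by function, with earlier results of these data known, so their changes too are a description with no p-value. Of 148 such genes, 137 were in the table and 73 were tested. In group B vs. A, 10 rose and 45 fell, against 10.1% of all tested genes that rose and 53.0% that fell. Their median log2 fold change was -1.58, against -1.10 over all tested genes. The rises were led by *Ccn2*, which encodes a matricellular growth factor induced by TGF-beta. It went from 0.840 ± 0.477 FPKM in A to 278 ± 89.1 in B (log2 fold change 7.23 ± 0.28). *Ccn1* of the same family (6.31 ± 0.14) and the inhibitory *Smad7* (4.79 ± 0.077) came next. All 3 are known targets of TGF-beta. *Tgfb1* fell in this comparison, and of the 13 tested TGF-beta signalling genes 4 rose and 6 fell, with a median of -0.75. What links these changes was not tested. The falls were led by *Emilin1*, an elastic fibre glycoprotein (-4.21 ± 0.14), the metalloproteinase *Mmp11* (-4.10 ± 0.079) and *P3h4*, of a collagen hydroxylation complex (-3.94 ± 0.11). *Ccn2* passed the test of the replicate number as well (adjusted p = 0.0021), with the second library the highest in all 4 groups.

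By function, 4 of the 13 tested TGF-beta signalling genes rose and 6 fell in group B vs. A. The counts by function in this comparison stand beside 10.1% of all tested genes that rose and 53.0% that fell. Of the other genes of collagen modification, folding and export, 0 of 12 rose and 8 fell. Of the other matrix glycoproteins and proteoglycans, 0 of 16 rose and 13 fell, and of the other remodelling genes 4 of 17 rose and 9 fell. The remaining groups were small, with 1 of 3 other collagen chains, 5 of 7 other basement membrane genes and 3 of 5 other cleavage and cross-linking genes falling. In group C vs. B, 0 of the 73 rose and 5 fell, against 1.13% of all tested genes that rose and 1.16% that fell. The 5 were led by *Tgm2*, a transglutaminase that cross-links matrix proteins (-1.24 ± 0.11), *Fbln1*, a fibulin (-1.198 ± 0.11) and *Fn1*, fibronectin (-1.18 ± 0.16). *Fn1* went from 46.5 ± 10.1 FPKM in B to 19.8 ± 2.20 in C. In group D vs. A, 0 of the 73 passed both thresholds, against 0.0659% of all tested genes that rose and 0.151% that fell. Limma's adjusted p alone was passed by 16 of the 73, 5 of them higher and 11 lower. That was about the same share as the 22.0% of all tested genes.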

How the data were processed

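Poly(A) RNA of 12 AML12 libraries was extracted with TRIzol and made into libraries with a VAHTS Universal kit. The authors deposited gene-level FPKM values, and the submitters' processing notes name fastp, HISAT2, HTSeq and GRCm39 with versions not given in the sources used here. Whether counting used strand is not given either. The study ran its own tests on counts, but the deposited unit is FPKM, so log2(FPKM + 1) was tested with limma 3.58.1 in R 4.3.3, with an intensity trend, 4 group terms over all 12 libraries and Benjamini-Hochberg adjustment over the 10615 genes whose FPKM averaged 1 or more. A call required adjusted p < 0.05 together with a log2 fold change beyond 1 in size. Tables and figures were made with Python 3.11.15, pandas 2.3.3 and matplotlib 3.10.9.

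FPKM steps gave whole reads (tolerance 0.02 read) for 22212 of 22212 genes above 0 in at least 2 libraries, and 2612 genes above 0 in 1 library were left out of totals. Limits at 0 reads use 3 reads and cover counting error only. The members and lists were chosen with earlier results of these data known. Values in every library are given for the 2 most abundant members of each role, those with the largest change in each comparison among members with a mean of at least 1, the lysyl oxidases and *Serpinh1*, and for the other pathway genes up to 3 rises and falls per comparison are named. Other members are given by means or reads, and *Thbs1* was added after its values were seen. Alternatives were a pseudocount of 0.1, no filter, TPM and median-ratio scaling, the replicate number as a block, only the groups compared, limma-voom on recovered reads and each replicate left out, and, added after the data were seen, replicate 2 left out of every group. The scripts were tested on simulated data. Replicate numbers come from the sample titles. Deviations of same-numbered libraries correlated at 0.173, 0.174 and 0.142 in groups A and B, at 0.277, 0.243 and 0.00502 in B and C, and at 0.0872, 0.579 and 0.302 in A and D. Those of differently numbered libraries ran from -0.131 to 0.0044, from -0.321 to 0.181 and from -0.51 to 0.367. Only in A and B was every same-numbered value above every other, so the numbers were taken to pair libraries in B vs. A only. The standard errors given are all from the fit without pairing, also in B vs. A. Blocking on the replicate number moved the B vs. A error of *Col1a1* from 0.36 to 0.16, and that of *Col5a1* from 0.083 to 0.086. Promoter windows are RefSeq's, on GRCm38.p6, and no coordinates were mixed with GRCm39.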

Additional observations from a re-analysis of the deposited data

Results flagged for a closer look

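Of the 24 members described in every library, 14 passed the adjusted p of limma's interaction term, against 37.5% of all tested genes. *Loxl1* and *Fbln2* were among the 24 and were not tested. The term is the C vs. B difference minus the D vs. A difference on the log2 scale. These members were listed with both contrasts known, so the values are a description. Some were described because their change was the largest of their role in C vs. B or D vs. A. Both changes enter the term, so the count of 14 is read no further. *Pcolce* had the largest difference, at -2.20, followed by *Sparc* (-1.44), *Serpinh1* (-1.40) and *Timp1* (-1.39). *Serpinh1* and *Timp1* were higher with TCA in the absence of Cu/ES and lower with TCA in its presence, in every library. *Crtap* (-0.98), *Col3a1* (-0.90), *Col4a1* (-0.87), *Loxl2* (-0.85), *Nid1* (-0.81), *Timp2* (-0.74) and *Col6a1* (-0.71) followed, then *Bmp1* (-0.51) and *Col16a1* (-0.49). *Col6a1* missed the threshold without the filter on low values, with TPM scaling, in limma-voom and when any of 7 libraries was left out. *Col5a3* had a positive difference, at 0.58, and it missed the threshold without the filter on low values, with a pseudocount of 0.1 and when any of 8 libraries was left out.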

How the results depend on the processing

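Median-ratio scaling, which moved the all-gene median of group B vs. A from -1.10 to 0.0143, gave 2 members risen and 14 fallen in that comparison and 20 and 26 of the other pathway genes. About as many of all tested genes rose as fell in that comparison under this scaling. It turned the B vs. A values of *Col5a3* (0.34), *Col12a1* (0.54), *Col4a1* (0.062), *Nid1* (0.61), *Plod2* (0.11), *Plod3* (0.87), *P3h1* (0.17), *Serpinh1* (0.94), *Pcolce* (0.81) and *Pcolce2* (0.81), and the D vs. A value of *Bmp1* (0.011). TPM scaling moved that median to -1.36. In group C vs. B, 1 member rose (*Col5a3*) with a pseudocount of 0.1, TPM or median-ratio scaling or limma-voom, and 11 fell with the pseudocount and 4 with TPM. All 10615 tested genes had 317 rises and 386 falls there with the pseudocount and 132 and 76 with TPM. They had 259 and 176 with median-ratio scaling and 343 and 433 with limma-voom. Of the other pathway genes, 1 rose there with the pseudocount, no filter, median-ratio scaling or limma-voom, and 8 fell with the pseudocount and 9 with limma-voom. In group D vs. A, 2 of them fell with the pseudocount or limma-voom and 1 without replicate 2 of every group. Among all tested genes, 60 fell there with the pseudocount, 68 with limma-voom and 24 without replicate 2. The causes were not tested.

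Leaving out replicates in turn gave 0 to 1 members risen in C vs. B, 0 to 1 fallen in D vs. A (*Col1a1*, without group D replicate 2) and 0 to 2 pathway genes fallen in D vs. A. D vs. A log2 fold changes that changed sign were near 0 and ran from -0.059 to 0.042 (*Bmp1*), -0.30 to 0.022 (*Col3a1*), -0.0802 to 0.075 (*Crtap*), -0.26 to 0.0058 (*Loxl3*), -0.0677 to 0.14 (*Sparc*) and -0.12 to 0.085 (*Timp2*). In a fit blocked on replicate number, the members' counts were 1 risen and 26 fallen in B vs. A, 0 and 7 in C vs. B and 0 and 0 in D vs. A, with 21 past the interaction term, and the pathway genes' were 10 and 45, 0 and 5, and 0 and 0. The block changed none of these counts. In C vs. B and D vs. A, where the numbers did not meet the pairing rule, the members past limma's adjusted p alone went from 26 to 30 and from 7 to 11 with the block. *Col1a1* was among them in both, with same-numbered ratios of 0.348, 0.371 and 0.423 in C vs. B and 0.495, 0.678 and 0.564 in D vs. A. Reads limit the 12 members too low to test, 5 of which (*Col1a2*, *Col5a2*, *Adamts2*, *Loxl1* and *Timp3*) had under 30 reads in every library.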
